A study of Mus musculus with 18 samples.

Results

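W464A/W465A and W464A/W465A/W796A are mutant forms of DNMT1, the enzyme that maintains CpG methylation, and the question here was whether adding W796A to W464A/W465A changes methylation in any class of region when the mean level is the same. CpG methylation was read by eRRBS, an enhanced form of reduced representation bisulfite sequencing, in which restriction digestion selects short, mostly CpG-rich fragments and bisulfite treatment tells methylated from unmethylated cytosines. All CpGs with at least 5 reads in each of the 6 libraries were used, which were 2765864 of the 21867550 CpGs in the table (12.6%). The level of a CpG is the share of its reads that were methylated, and a class mean counts each CpG once.

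All libraries came from mouse embryonic stem (ES) cells in which Dnmt1 is knocked out, so the knockout is shared by every group. The cells were transfected with a pPyCAGIP vector carrying a DNMT1 form, selected with puromycin and kept as stable lines. The 2 groups compared are W464A/W465A (3 biological replicates, called the libraries without W796A) and W464A/W465A/W796A (3 biological replicates, called the libraries with W796A). The other 12 of 18 libraries carry WT, W796A, W465A or W465A/W796A DNMT1, 3 of each. DNMT1 is expressed from a transgene in all of them, and the amount of DNMT1 protein per line was not analysed here. The labels do not say whether replicates are different stable lines, so p-values measure the spread between these samples, which may be technical. No transcripts were measured. The promoters of the pluripotency genes Pou5f1, Sox2 and Nanog had at most 1.67% methylation in any of the 6 libraries. Others of the 17 covered pluripotency promoters stood higher, such as Dppa3 at 5.70% to 19.7% and Prdm14 at 2.43% to 6.54%. Promoter CpGs as a whole were also low, with means of 1.74% without W796A and 1.78% with it, and cell identity was not tested.

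DNMT1 copies methylation onto the new DNA strand after replication. Its RFTS domain, which holds W464 and W465, binds histone H3 marked by H3K9me3 and ubiquitin, and its first BAH domain, which holds W796, binds H4K20me3. Both histone marks are typical of pericentromeric satellite DNA and of transposon copies in ES cells. In mouse, the major satellite is a tandem array next to the centromeres, and young LINE-1 elements carry tandem promoter units called monomers at their start. LTR retrotransposons are flanked by repeated ends. Germline genes (genes of meiosis and of the piRNA pathway) are a textbook group of promoters that ES cells repress by DNA methylation.

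Repeats were recognised from the GRCm38 reference alone: lower-case (repeat-masked) letters, the length of the masked run, and the distance at which a sequence matches itself. Tiles joined a tandem family by the short words they share with such self-matching tiles. A shift of 234 bases is the unit length of the major satellite, and shifts of 208 and 212 bases are those of the A and Tf monomers of LINE-1. One unit of each is shown, on the plus strand and with CpGs in capitals, because the results turn on these families. The satellite unit is at chr9:3001261-3001494, the 208-base unit at chr5:68221056-68221263 and the 212-base unit at chr1:114557687-114557898. The satellite unit overlaps an exon of the gene model Gm10722 and an intron of Gm26870, and the other units overlap no annotated gene.
234-base satellite unit: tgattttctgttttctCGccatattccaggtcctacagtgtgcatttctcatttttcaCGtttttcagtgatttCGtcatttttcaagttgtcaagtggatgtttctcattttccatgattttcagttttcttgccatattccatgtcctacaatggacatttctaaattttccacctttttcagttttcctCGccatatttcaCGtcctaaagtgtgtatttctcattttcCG
208-base monomer unit: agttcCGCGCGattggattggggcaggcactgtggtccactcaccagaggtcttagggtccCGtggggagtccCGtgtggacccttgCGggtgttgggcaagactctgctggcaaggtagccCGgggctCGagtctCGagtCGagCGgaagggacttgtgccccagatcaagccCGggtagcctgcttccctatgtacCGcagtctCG
212-base monomer unit: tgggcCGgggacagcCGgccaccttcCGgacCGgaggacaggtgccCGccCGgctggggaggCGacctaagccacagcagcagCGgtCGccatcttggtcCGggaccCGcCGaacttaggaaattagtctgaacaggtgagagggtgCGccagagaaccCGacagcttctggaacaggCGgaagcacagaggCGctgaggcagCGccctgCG

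The 24 bases around a CpG are often the same in many copies, so copies can be pooled by their letters. The following contexts, with the CpG in capitals, stand for the satellite (a and b), the 208-base monomer (c and d), the 212-base monomer (e) and masked runs under 300 bases (f), and were chosen after their values were seen.
a: actgaaaatcaCGgaaaatgagaa
b: ctcatttttcaCGtttttcagtga
c: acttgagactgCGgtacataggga
d: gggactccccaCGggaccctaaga
e: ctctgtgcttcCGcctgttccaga
f: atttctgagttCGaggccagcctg

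The mean methylation level was 16.4%, 20.5% and 16.3% in the libraries without W796A and 16.8%, 19.6% and 15.6% in those with it. The groups overlapped, at 17.7% ± 2.39 (SD, n = 3) against 17.4% ± 2.06 (SD, n = 3), a difference of -0.363 percentage points (exact two-sided permutation p 0.7, where 0.1 is the smallest that 3 against 3 can give). Over 327585 tiles of 1 kb with at least 3 usable CpGs, the mean absolute difference between a library with W796A and one without was 7.81 to 10.1 points. Pairs within a group differed by 7.90 to 9.94 points, so a library was no closer to its own group than to the other (exact permutation p 0.5 over 10 splits). The libraries held 65982528 to 100749239 CpG calls, with a median of 11 to 16 reads at the CpGs used. Chi-square per CpG between libraries was 1.39 to 1.81 in all 15 pairs, which sets them against counting error only, with reads taken as independent, and no pair stood apart as a library deposited again. Read shares of whole chromosomes differed in places. Chromosome 6 had 1.35 and 1.41 times the median share in replicates 1 and 3 without W796A, and chromosome 11 had 1.34 times in replicate 3 with W796A.

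Satellite DNA was the region class in which the 6 libraries separated: methylation was higher in all 3 libraries with W796A. The tandem families, with the satellite among them, and the repeated ends were added as classes after the values were seen. Any class with no overlap has an exact permutation p of 0.1, so 1 such class of 49 is no more than random labels could give. Of 49 classes (masking, length of the masked run, copy number, tandem family, CpG density, gene feature, flanking bases, chromosome, window density and level in WT), 1 was higher with no overlap between the groups (2.04%) and 0 were lower (0.0%). Relative to each library's own mean level, 18 classes were higher with no overlap (36.7%) and 7 were lower (14.3%). This ratio scales each library by its overall level, and it carries the spread of the library means into classes that do not follow that level. The 18 are masked sequence as a whole and all its runs of 300 bases or more, the tandem families, 24-base contexts in 2 or more copies, dense CpGs, CpGs flanked as CCGC and both sex chromosomes. The 7 are unmasked sequence, unique 24-base contexts, introns, autosomes and CpGs flanked as ACGA, ACGG or ACGT. Of these, unmasked sequence, unique contexts and autosomes are what remains beside masked sequence, repeated contexts and the sex chromosomes. On this scale they must move the other way, so they are not separate lower classes. The classes share CpGs, and with 3 libraries a group none can pass the test: the smallest adjusted p (Benjamini-Hochberg over 49 exact permutation tests) was 0.871 for levels and 0.196 for relative levels. In bulk cells, a small shift in all cells and a large one in a few cannot be told apart.

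**Figure D1:**
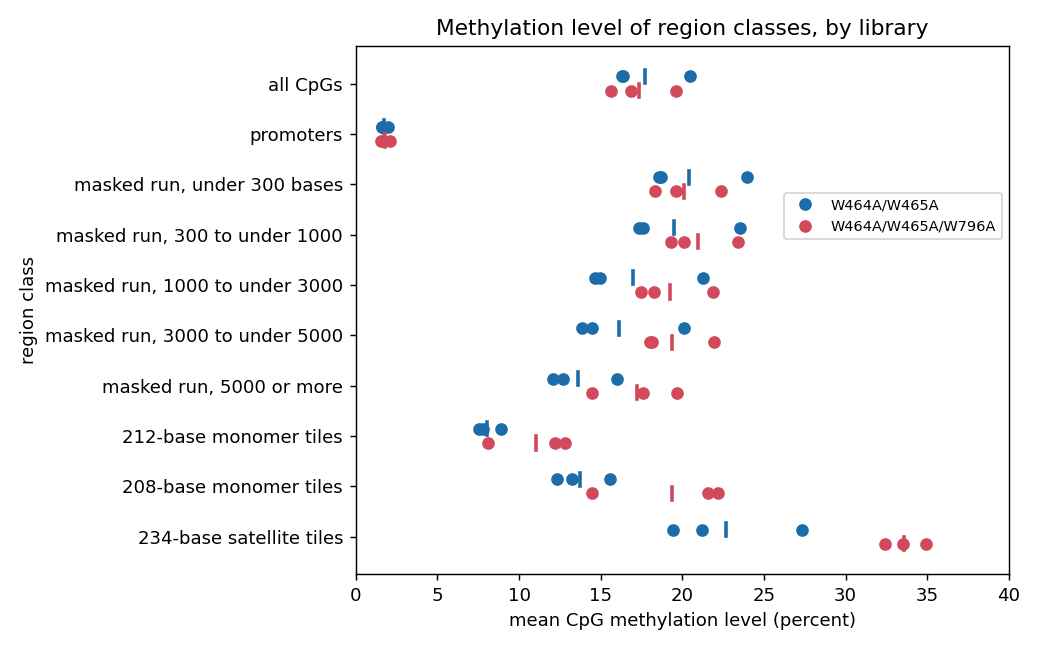
Mean CpG methylation level (percent, x axis) of region classes (y axis) in each of the 3 libraries without W796A (blue) and the 3 with it (red), and the group mean (bar). The satellite tiles are the class in which the groups do not overlap, at 19.4% to 27.3% against 32.4% to 34.9%, while all CpGs and promoters coincide.

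At the major satellite, 349 CpGs in 42 tiles had 21.2%, 27.3% and 19.4% methylation without W796A and 33.5%, 32.4% and 34.9% with it. The lowest library with W796A stood above the highest without. The means were 22.7% ± 4.12 (SD, n = 3) and 33.6% ± 1.24 (SD, n = 3), a difference of 10.9 points (exact permutation p 0.1, the smallest possible). Relative to the library mean, the satellite stood at 130%, 133% and 119% without W796A and at 199%, 165% and 224% with it. On this scale the libraries with W796A spread more (SD 29.3 percentage points of that mean) than those without (SD 7.23), the reverse of the levels.

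The difference was seen along the satellite arrays. The tiles hold copies of 1 repeat read in the same 6 libraries, so they are not separate observations. All 42 tiles were higher with W796A, by 0.637 to 22.2 points with a median of 10.8, and in 33 of them the libraries did not overlap (78.6%, where 4.11% of all tiles were higher and 4.92% lower with no overlap). Of these tiles, 30 lie on chromosome 9, 5 on chromosome 14, 4 on chromosome 2 and 1 each on chromosomes 4, 12 and 16. The differences were 9.68 to 11.02 points on chromosome 2 and 9.03 to 15.3 points on chromosome 14. On chromosome 9 the median was 11.1 points, and 7 of its tiles overlapped between the groups. The tile on chromosome 4 differed least beyond chromosome 9, with 0%, 1.30% and 10.3% against 6.12%, 2.04% and 4.82%, on 29 to 83 reads.

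Within the satellite unit shown, all 6 CpGs were higher with W796A and 5 did not overlap. Of all single CpGs, 41.1% were above 0, and 3.14% were higher and 3.42% lower with no overlap. The CpG at position 193 of the unit had 13.96%, 15.2% and 10.8% without W796A and 32.1%, 26.3% and 24.1% with it, on 909 to 1712 reads. The CpG at position 59 overlapped, with 6.86%, 14.9% and 0% against 19.6%, 11.5% and 11.2% on 52 to 102 reads. Pooled over copies, context a, with 57 usable CpGs, had 22.8%, 31.4% and 19.7% against 36.8%, 35.6% and 37.4%. Context b, with 38 usable CpGs, stood lower in both groups, at 10.04%, 14.2% and 8.27% against 17.6%, 16.8% and 19.2%. The contexts differed in level, and each separated the groups. CpGs and contexts of the unit come from the same libraries as the tiles and are not separate observations either. Satellite CpGs were read deeply, at 18.4 to 27.6 times the library's mean depth without W796A and 16.7 to 26.2 times with it. These depth ranges overlap, and how reads from copies that the assembly lacks were placed was not tested.

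Masked runs, which are mostly transposon copies, had larger differences in the longer classes. CpGs in runs under 300 bases had 18.7%, 23.9% and 18.6% without W796A and 19.6%, 22.3% and 18.3% with it, a difference of -0.314 points. The difference was 1.48 points for runs of 300 to under 1000 bases, 2.25 points for 1000 to under 3000 and 3.21 points for 3000 to under 5000, and in each of these classes the groups overlapped. Without replicate 2 with W796A these differences were 0.241, 0.919 and 1.93 points, and over all libraries left out in turn they ranged from 0.241 to 3.51, 0.919 to 4.39 and 1.93 to 5.20. Without replicate 2 without W796A, or replicate 3 with it, runs of 3000 to under 5000 bases differed more than the longest class. In runs of 5000 bases or more, the length of full LINE-1 copies, 38757 CpGs had 12.7%, 16.0% and 12.1% against 14.5%, 19.7% and 17.6%. The means were 13.6% ± 2.10 and 17.2% ± 2.61 (SD, n = 3), a difference of 3.66 points (exact permutation p 0.2), and the groups overlapped, since replicate 2 without W796A exceeded replicate 1 with it. Relative to the library mean they did not: 77.3%, 78.1% and 74.3% against 86.0%, 100% and 113%.

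The same direction was seen chromosome by chromosome, within the same libraries, so chromosomes are not replicates. Runs of 5000 bases or more were higher with W796A on 21 of 21 chromosomes, by 2.98 to 4.37 points, with 0 chromosomes free of overlap in level and 19 free of it relative to the library mean. Without chromosomes 6, 8, 11, 12, X and Y, where read shares differed, the difference was 3.62 points, and that of the satellite 10.9 points. Of 4858 tiles mostly in such runs, 75.1% were above 0, against 45.6% of all tiles. An unadjusted p under 0.05 in the quasi-binomial model was reached by 753 of them in the higher direction (15.5%) and 32 in the lower (0.659%), against 2.09% and 2.58% of all tiles.

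**Figure D2:**
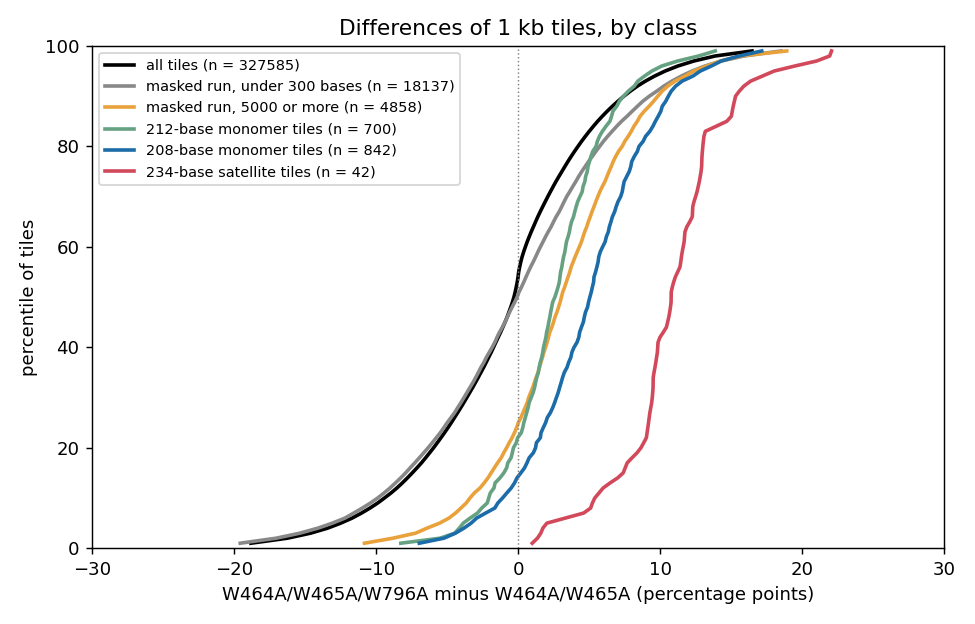
Percentile (y axis) of the difference in methylation level with W796A minus without (percentage points, x axis) over 1 kb tiles of each class, 1 line per class, with reads of the 3 libraries of a group pooled. The medians are -0.291 points for all tiles, 3.06 for long masked runs, 5.06 for 208-base monomers and 10.8 for the satellite, and no satellite tile lies below 0.

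Taken as single features, 5324 masked runs of 3000 bases or more had a median difference of 2.92 points, and 73.5% were above 0. None passed an adjusted p under 0.05 with 10 points (0 higher, 0.0%, and 0 lower, 0.0%, of 5322 tested in the quasi-binomial model). At an unadjusted p under 0.05, 498 were higher (9.36%) and 18 lower (0.338%). The libraries did not overlap in 707 higher (13.3%) and 87 lower runs (1.63%). Runs whose ends repeat each other, as the LTRs of retrotransposons do, numbered 368, with a median of 4.81 points and 79.6% above 0. The 4888 runs without such ends had 2.76 points and 73.0%. CpGs in long runs with repeated ends had 13.1%, 19.3% and 12.6% against 17.9%, 23.5% and 19.4%. Those without repeated ends had 12.9%, 16.4% and 12.3% against 14.8%, 19.7% and 17.5%, so both kinds overlapped between groups.

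The LINE-1 promoter monomers stood higher in 2 of the 3 libraries with W796A. In 842 tiles of 208-base monomers, 8867 CpGs had 13.3%, 15.6% and 12.3% without W796A and 14.5%, 22.2% and 21.5% with it. Replicate 1 with W796A lay inside the range of the other group. The difference was 5.69 points (exact permutation p 0.2), 8.16 points without that replicate and 4.29 and 4.61 points without replicate 2 or 3 with W796A. In 700 tiles of 212-base monomers, 4798 CpGs had 7.54%, 8.87% and 7.79% against 8.10%, 12.2% and 12.8%, a difference of 2.98 points (exact permutation p 0.2) and of 4.46 points without replicate 1. In both monomer families replicates 2 and 3 with W796A stood above every library without it and replicate 1 did not, whereas at the satellite all 3 did.

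By chromosome, the 208-base monomers were higher on 21 of 21, by 4.01 to 11.4 points, and on 5 of them without overlap. The 212-base monomers were higher on 20 of 20 chromosomes, by 1.27 to 4.25 points, and on 3 without overlap. The chromosomes come from the same libraries and are not separate observations. Among the tiles of the 2 families 85.7% and 77.9% were above 0, against 45.6% of all tiles. In the 208-base tiles, 269 were higher at an unadjusted p under 0.05 (31.9%) and 4 lower (0.475%). In the 212-base tiles the counts were 78 (11.1%) and 2 (0.286%). Of all tiles, 2.09% were higher and 2.58% lower at that threshold.

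In the 208-base unit shown, 8 of 14 CpGs were usable, all 8 were higher and 3 did not overlap. The tile that holds it had 4.505%, 4.70% and 4.48% without W796A and 6.80%, 17.8% and 17.3% with it. In the 212-base unit 7 of 8 usable CpGs were higher and 3 did not overlap. Its tile had 3.50%, 5.25% and 4.74% against 5.67%, 8.10% and 7.85%. Of all single CpGs, 41.1% were above 0, and 3.14% were higher and 3.42% lower with no overlap.

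CpGs at different places in a monomer had different levels, pooled over copies. Context c, with 927 usable CpGs, had 20.7%, 23.7% and 20.5% without W796A and 23.1%, 36.8% and 33.3% with it. Context d, in 1126 usable CpGs, had 6.03%, 8.62% and 5.97% against 8.03%, 11.6% and 12.04%. Context e, in the 212-base monomer, had 5.83%, 6.65% and 5.68% against 7.74%, 11.5% and 10.97%, and did not overlap. All 30 contexts of the 208-base monomer and all 16 of the 212-base monomer were higher, with medians of 6.47 and 3.26 points, and in each family 3 did not overlap. Over all 538 contexts with at least 30 usable CpGs the median was 2.01 points, 378 were above 0, 59 were higher with no overlap and 6 lower.

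Short masked runs had no common direction over tiles, and leaned lower over contexts. Their 18137 tiles had a median difference of -0.0645 points with 49.3% above 0, and 3.24% were higher and 2.24% lower at an unadjusted p under 0.05. Of 146 contexts in runs under 300 bases, which in mouse are mostly SINE copies, 45 were above 0, and the median was -1.07 points. Context f, with 3718 usable CpGs, had 24.6%, 32.4% and 23.04% without W796A and 23.9%, 28.5% and 23.3% with it, with the groups overlapping.

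Dense CpGs outside promoters were also higher, by little. Where over 20 CpGs lay within 250 bp on either side, and outside promoters (500 bp either side of a start site), levels were 4.02%, 4.94% and 3.98% without W796A and 4.26%, 6.17% and 4.95% with it. The groups overlapped, and the difference of 0.813 points was 0.293 without replicate 2 with W796A and 1.24 without its replicate 1. Relative to the library mean these CpGs stood at 24.5%, 24.1% and 24.5% against 25.3%, 31.4% and 31.7%, with no overlap. These dense CpGs include LINE-1 monomers, and the part of the monomers in this difference was not tested. Dense CpGs at promoters had 0.513% ± 0.0464 and 0.533% ± 0.0891 (SD, n = 3). All promoter CpGs had 1.74% ± 0.210 and 1.78% ± 0.276 (SD, n = 3).

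Exons, introns and classes by the level in WT cells overlapped between the groups in level, while introns were lower with no overlap relative to the library mean (125%, 124% and 126% against 122.8%, 122.3% and 123.2%). The difference was -0.0684 points in exons, -0.832 in introns and -0.0727 between genes. It was -0.336 points at CpGs with 80% to 100% methylation in WT and -0.00662 at those with 0% to 20%. The X chromosome had 9.42%, 12.5% and 9.20% against 10.9%, 13.4% and 10.9%, which overlapped in level but not relative to the library mean. Its difference of 1.35 points was 0.512 to 2.42 with 1 library left out. On the Y chromosome 346 CpGs differed by 4.10 points, and the read share of Y was 0.142 times the median of 18 libraries in replicate 3 with W796A and 0.852 times in replicate 2. The part of that lower share in the difference was not tested.

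Single tiles were tested in a quasi-binomial model of methylated and unmethylated reads, and called at a Benjamini-Hochberg adjusted p under 0.05 with at least 10 points. Of 326335 tiles tested, 24 were called higher (0.00735%) and 0 lower (0.0%), with 6826 and 8422 at an unadjusted p under 0.05. Of the 24, 10 were satellite tiles, 10 lay in masked runs of 5000 bases or more and 4 lay elsewhere, 3 of these in mostly unmasked sequence. EdgeR and limma called 0 tiles, with 13200 and 14755 at an unadjusted p under 0.05, and the quasi-binomial fit over all 18 libraries also called 0. Whether a tile was called thus depended on the model and on the libraries that entered it. In simulated data the model called more unchanged tiles than its threshold allows, so the adjusted p of a single tile is too small.

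The satellite tile with the smallest p, chr14:19418001-19419000 at the gene model Gm21738, had 16.3%, 19.4% and 13.5% without W796A and 32.8%, 33.0% and 31.3% with it. Its difference was 15.3 points (quasi-binomial adjusted p 2.62e-16), on 3353 to 6472 reads. With the larger of its own and the shared overdispersion its adjusted p was 6.71e-05. That setting kept 1 other tile, chr9:3006001-3007000, with 21.4%, 23.65% and 18.02% against 40.7%, 39.9% and 34.1% (adjusted p 0.0187).

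Among called tiles, the largest differences lay outside the satellite and on fewer reads. The tile chr1:57519001-57520000, 101048 bp from Maip1 and with 88.9% of its CpGs in short masked runs, had 17.8%, 13.3% and 15.5% against 42.1%, 66.7% and 56.3% (quasi-binomial adjusted p 0.0221), on 45 to 135 reads. In the gene model Gm5084, chr13:60206001-60207000 had 11.3%, 7.24% and 12.5% against 31.2%, 51.0% and 33.9% (adjusted p 0.00591). In long masked runs, an intron of Cmc2 at chr8:116897001-116898000 had 7.56%, 3.94% and 6.54% against 15.2%, 41.2% and 24.9%. An intron of Zfhx3 at chr8:108344001-108345000, in a 208-base monomer, had 9.95%, 11.1% and 5.76% against 25.9%, 25.6% and 24.2%. Zfhx3 encodes a zinc-finger homeobox transcription factor. The other 2 calls outside the satellite and the long runs were neighbouring tiles from chr8:123428001 in Def8, whose reads ranged from 181 to 2894 and from 82 to 2348 across libraries.

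No lower tile was called. Those with the smallest p and no overlap were chr1:119369001-119370000 in Gm29455, with 50%, 63.0% and 59.5% against 15.4%, 25% and 17.4% on 28 to 78 reads (quasi-binomial adjusted p 0.119), and tiles in Dnaaf5, Ep300 and Serinc5 and 924 bp from Slc36a2. Dnaaf5 is a dynein assembly factor and Ep300 a histone acetyltransferase. Their adjusted p was 0.200 to 0.236.

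Longer features gave satellite loci in the same model. Of 21021 windows of 100 kb, 3 were called higher (0.0143%) and 0 lower (0.0%), with 65 (0.309%) and 58 (0.276%) at an unadjusted p under 0.05. With no overlap, 1.73% were higher and 1.54% lower. They were the satellite windows from chr14:19400001, chr2:98600001 and chr9:3000001. The chromosome 2 window had 18.1%, 24.7% and 16.5% without W796A and 30.7%, 31.1% and 30.1% with it (quasi-binomial adjusted p 0.00422). EdgeR and limma called none of these 3 (adjusted p 0.122 or more). They called other windows, edgeR 1 and limma 3. Both called the window from chr13:50000001, which holds a called 208-base monomer tile and had 9.21%, 19.8% and 12.8% against 22.1%, 33.4% and 25.8% (edgeR adjusted p 0.0463, limma 0.0176). The others, by limma, started at chr6:105900001 and chr16:79200001. The lower windows with the smallest p, at Ntn1, Smad1 and Lmf1, differed by -3.30, -3.85 and -5.50 points and were not called (adjusted p 1.00).

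Among 18012 promoters tested, 4 were called higher (0.0222%) and 0 lower (0.0%), with 224 (1.24%) and 193 (1.07%) at an unadjusted p under 0.05. With no overlap, 4.12% were higher and 4.43% lower. All 4, Gm21738, Gm10801, Gm10800 and Gm10719, are gene models inside satellite arrays. Gm10800 had 19.5%, 26.5% and 18.01% against 33.1%, 32.6% and 32.2%. It was the promoter that edgeR also called (edgeR adjusted p 2.24e-06), and limma called 0. The promoters leading in the lower direction were Gm10287, Pmfbp1, Gm13833, Gm48084 and Gm39556, and none was called (adjusted p 1.00). Pmfbp1, which encodes a protein of the sperm head to tail junction, had 33.3%, 59.6% and 40.0% against 31.2%, 16.9% and 13.4% on 48 to 104 reads.

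Germline gene promoters had a mean of 10.5%, 9.72% and 8.84% without W796A and 9.35%, 16.3% and 11.4% with it. The groups overlapped, at 9.67% ± 0.812 and 12.4% ± 3.59 (SD, n = 3), a difference of 2.70 points (exact permutation p 0.3). Of 42 listed genes, 35 had a covered promoter: 30 were above 0, 4 below and 1, the meiotic recombinase gene Dmc1, had no methylated read over 3 CpGs. Of all 18360 promoters, 8939 were above 0 and 9064 below. The median difference was 3.20 points, against 0.0 over all promoters. These sets differ in starting level: 23 of the 35 germline promoters had at least 5% methylation without W796A, against 3784 of all 18360. The part of the starting level in the difference was not tested. Without replicate 2 with W796A, the highest library, the mean difference was 0.722 points.

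In 2 germline promoters the libraries did not overlap, both higher (5.71%, where 3.99% of all promoters were higher and 4.34% lower with no overlap). Sycp1, whose protein forms the transverse filaments of the synaptonemal complex, had 5.10%, 8.12% and 5.32% without W796A and 16.1%, 27.7% and 15.1% with it. Sycp2, a lateral element protein of the same complex, had 3.17%, 2.11% and 3.11% against 5.02%, 8.44% and 4.54%. The 250 bases before the Sycp1 start, at chr3:102936101-102936350 on the minus strand and with CpGs in capitals, are shown because this promoter had the largest difference of the list.
Sycp1 promoter: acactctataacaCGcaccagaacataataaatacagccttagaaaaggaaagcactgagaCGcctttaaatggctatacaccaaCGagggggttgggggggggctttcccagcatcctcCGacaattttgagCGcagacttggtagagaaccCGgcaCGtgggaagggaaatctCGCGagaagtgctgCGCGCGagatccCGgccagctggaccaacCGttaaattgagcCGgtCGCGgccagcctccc

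All 14 usable CpGs of the Sycp1 promoter were higher with W796A, and 4 did not overlap. These 4 lie at -57, -59, -73 and -75 from the start, each on only 6 to 14 reads. Of all single CpGs, 41.1% were above 0, and 3.14% were higher and 3.42% lower with no overlap. Neighbouring CpGs can share reads, so they are not separate observations. The CpG at -59 had 0%, 9.09% and 0% against 28.6%, 50% and 21.4%.

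By role, which was assigned after the values were seen, all 7 covered genes of the chromosome axis and synaptonemal complex were above 0, by 0.0968 to 13.5 points. All 11 genes of the piRNA pathway and germ granule, which silence transposons in germ cells, were above 0 as well, by 0.123 to 7.63 points, with every one overlapping between the groups. Of all 18360 promoters, 8939 were above 0. In both sets some members were above 0 only through replicate 2 with W796A, while Sycp1 and Sycp2 were not among them. Rnf17 had 2.17%, 2.27% and 7.17% against 0%, 11.7% and 0.725%, and Hormad1 had 9.03%, 14.4% and 12.6% against 8.30%, 23.8% and 13.9%. Of 4 covered genes of meiotic recombination 2 were above 0 and 1 below, with a median of 0.372 points, and of 13 others 10 were above and 3 below, with a median of 3.32 points. Gtsf1, a piRNA pathway factor, had 8.37%, 14.8% and 13.001% against 11.2%, 21.05% and 21.8%. Tdrd9, a helicase of that pathway, rested on 3 CpGs with 52.8%, 21.6% and 19.05% against 30.6%, 52.4% and 33.3%. Dazl, an RNA-binding regulator of germ cells, had 23.1%, 21.3% and 15.0% against 18.3%, 34.1% and 20.96% over 47 CpGs. The 4 genes below 0 were Taf7l, a germ-cell paralogue of a TFIID subunit, Meiob, a meiotic single-strand DNA binding protein, Tex101, a sperm surface protein, and Rpl10l, a ribosomal protein retrogene. Taf7l differed by -6.57 points and Meiob by -4.53, and all 4 overlapped.

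**Figure D3:**
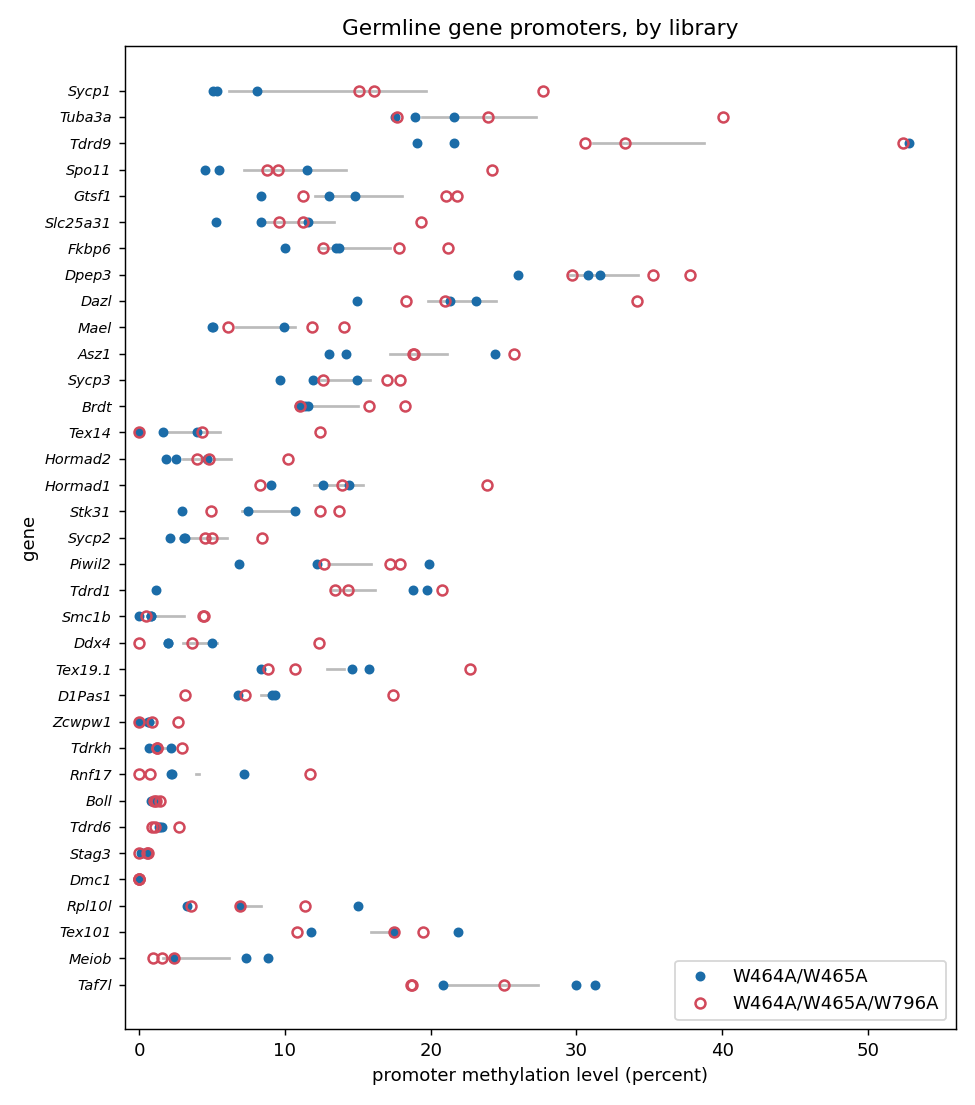
Methylation level (percent, x axis) of the 35 covered germline promoters (y axis) in each library without W796A (filled blue) and with it (open red), with a grey line joining the group means. In Sycp1 and Sycp2 all 3 red points lie above all 3 blue points, and in the other promoters the points overlap.

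All 12 gene lists overlapped between the groups in mean level. Apart from the germline list, the lists with at least 30 covered promoters had medians near 0. They were -0.00628 points for 30 imprinted promoters, 0.0 for 321 Zfp promoters and -0.0703 for 89 ribosomal protein promoters. The medians were 0.142 points for 35 Hox promoters, 0.496 for 39 keratin promoters and -0.0120 for 32 olfactory receptor promoters. The vomeronasal list, with 2 covered promoters, had 1.08 points, and the two-cell stage list had 4.95 points on its single covered promoter. Relative to the mean of all promoters, 2 lists were higher with no overlap, that single promoter and the Hox genes (50.1%, 50.8% and 48.4% against 52.8%, 51.2% and 62.8%), and 0 were lower. Single members differed in both directions. Olfr1224-ps1, Zfp217 and Rpl17 were higher by more than Sycp1, each with no overlap. Olfr1224-ps1 had 8.33%, 10.1% and 11.8% without W796A and 26.9%, 35.0% and 22.2% with it. Zfp217 had 17.9%, 10.2% and 12.4% against 31.1%, 26.9% and 23.6%. With no overlap, 2 olfactory receptor promoters were higher and 2 lower. For Zfp promoters these counts were 10 and 18, and for ribosomal protein promoters 3 and 3. H19, an imprinted non-coding RNA gene, was at 0% in 4 libraries and at 17.04% and 16.1% in replicates 2 and 3 with W796A, over 3 CpGs. Uhrf1, which encodes the protein that recruits DNMT1 to replicated DNA, had 1.97%, 0.478% and 0% against 3.05%, 6.06% and 3.54%. Hand1, a trophoblast transcription factor gene, had 4.14%, 2.37% and 5.42% against 11.3%, 9.96% and 12.2%. In the other direction, Hoxd4, a homeobox gene, had 18.7%, 25.7% and 18.5% against 16.8%, 15.3% and 17.4%. Among 20 promoters of DNA methylation and heterochromatin enzymes, Uhrf1 was higher with no overlap (5.0%) and 3, Ehmt1, Cbx1 and Smchd1, were lower (15.0%), with differences of -0.116 to -0.610 points at levels of at most 1.16%. None of these was called. Of all promoters, 3.99% were higher and 4.34% lower with no overlap.

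Compared with W465A, the other background in which W796A was added, W464A/W465A had the smaller difference in mean level. Over 1719527 CpGs read in the 12 libraries, the mean with W796A minus without was 15.3 points in W465A and, in W464A/W465A, -0.178 points. The difference of 15.5 points had an exact permutation p of 0.035 over 400 arrangements, and an adjusted p of 0.113 over 62 tests, which did not pass. In this test and those below, W796A labels were permuted within each background. The null is that W796A has no effect in either background, so a small p does not show that the effects differ. At the satellite the difference was 18.1 points in W465A against 10.9 points in W464A/W465A (difference of these 7.14 points, exact permutation p 0.505). Relative to the library mean the satellite differed by -26.5 percentage points of that mean in W465A and by 75.0 in W464A/W465A (exact permutation p 0.01, adjusted 0.305). Masked runs of 5000 bases or more differed by 23.8 and 3.69 points, with an exact permutation p of 0.1 for the difference.

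With and without W796A, repeats in the W464A/W465A background were below their level in WT. Over the CpGs read in all 18 libraries, the satellite had 22.4% ± 3.81 (SD, n = 3) in W464A/W465A, 33.3% ± 1.22 (SD, n = 3) in W464A/W465A/W796A and 75.2% ± 2.84 (SD, n = 3) in WT. Masked runs of 5000 bases or more had 13.03% ± 1.92, 16.8% ± 2.72 and 56.4% ± 11.8 (SD, n = 3) in these groups. The satellite level of W465A/W796A, 55.8% ± 3.31 (SD, n = 3), stood between.

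**Figure D4:**
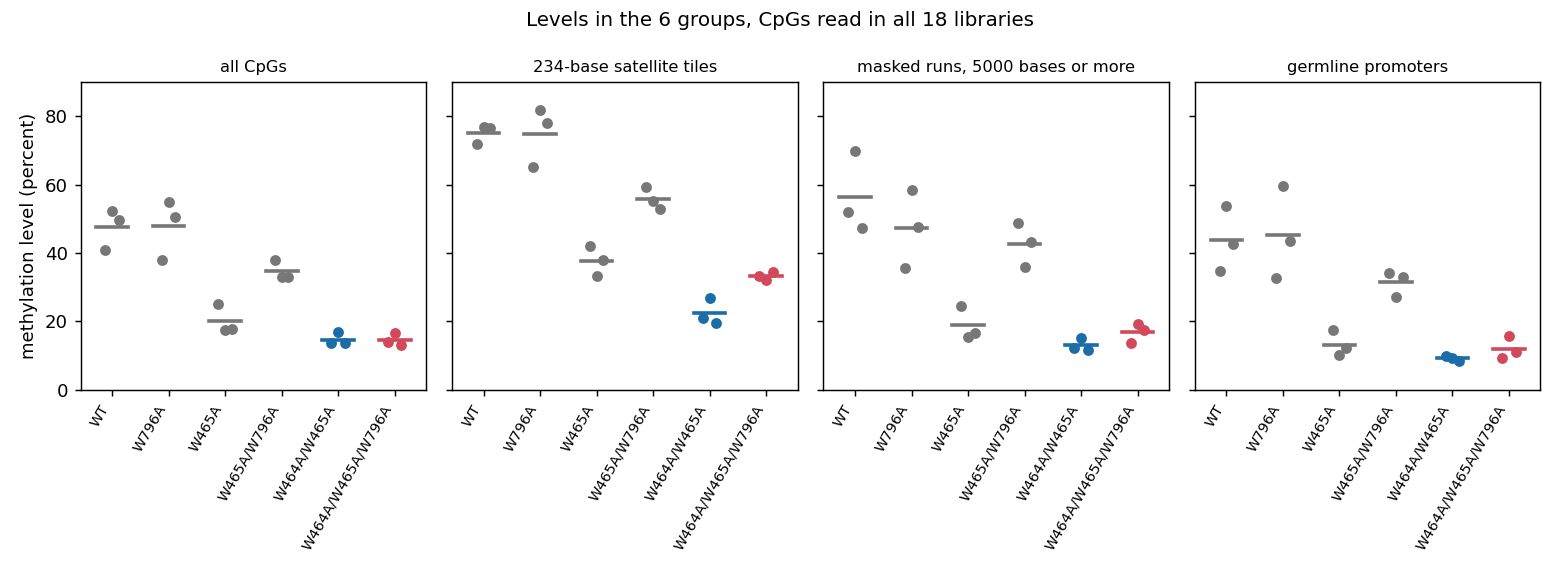
Methylation level (percent, y axis) of all CpGs, satellite tiles, masked runs of 5000 bases or more and germline promoters in each of the 6 groups (x axis), with 1 point per library and a bar for the group mean, over CpGs read in all 18 libraries. At the satellite the 3 red points lie above the 3 blue ones, by 10.9 points on average, and both lie below the 3 WT points.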

How the data were processed

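The deposited table gives, for each CpG and library, the count of methylated reads and the count of all reads, as the authors made it. Per the submitters' processing notes, the tools were cutadapt 1.2.1, Bismark 0.18.1 and Bowtie 1.2 and the build was mm10. Their settings, any removal of duplicates, the placing of reads with several matches and a bisulfite conversion rate are not given in the sources used here. All 21867550 listed positions are CpGs of the GRCm38 reference.

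CpGs with at least 5 reads in all 6 libraries were kept. Levels of classes and gene lists were compared over libraries by two-sided exact permutation tests. For 1 kb tiles (at least 3 CpGs), promoters (500 bp either side of a start site) and 100 kb windows (at least 20 CpGs), methylated and unmethylated reads were fitted with a quasi-binomial model per feature and tested by F test. Overdispersion was squeezed to a shared prior with limma's method, and p was adjusted by Benjamini-Hochberg over all features. A call needed adjusted p under 0.05 and 10 points. The model was tested on simulated data, where more of its tile calls were on unchanged tiles than the threshold allows. EdgeR 4.0.16 and limma 3.58.1 (R 4.3.3) and Python 3.11.15 with scipy 1.17.1 were used, and edgeR and limma fits were alternatives.

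Tandem families were seeded by tiles that match themselves at a fixed shift with at least 70% identity. Tiles were then assigned by their share of 12-letter words common among the seed tiles. The cut was at least 10% for the satellite and 50% for the monomers, so an assigned tile need not match itself at 70%. LINE-1 and satellite names rest on these shifts, since no repeat annotation was used. The comparison, gene lists and tests were chosen with earlier results of these data known, and the tandem families, repeated ends, 24-base contexts and masked runs taken as features were added after the values were seen. Named tiles and promoters are those with the largest called differences (10 tiles, 5 promoters per direction, else the smallest p without overlap), the 3 windows of smallest p per direction and the 3 members of each list with the largest difference. Other named features were chosen after their values were seen.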

Additional observations from a re-analysis of the deposited data

How the results depend on the processing

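The satellite difference was positive under every alternative run, from 9.34 to 13.3 points when 1 library was left out. The difference in mean level turned positive with at least 10 reads (0.0261 points) or 20 reads (0.269) per CpG, and ranged from -1.50 to 1.01 points with 1 library left out, at 1.01 without W464A/W465A replicate 2 and 0.507 without W464A/W465A/W796A replicate 3. The excess of tile distance between groups over that within was 0.00729 points on centred levels, and -0.279 to 0.0698 with 1 library left out, turning positive without W464A/W465A replicate 1 (0.0698) or 3 (0.0180). Classes with no overlap in level numbered 1 to 19 with 1 library left out: 19 without W464A/W465A replicate 2, 8 without W464A/W465A/W796A replicate 1 and 2 without its replicate 2. As percent of the library mean they numbered 25 in all and 25 to 34 with 1 library left out. Gene lists with no overlap numbered 3 with at least 20 reads and 0 to 3 with 1 library left out. Tiles called higher were 0 with edgeR, limma, all 18 libraries or no squeezing (1 lower). They were 2 at 25 points, 2 with the larger overdispersion, 9 with a prior following read depth, 15 with at least 10 reads, 51 with an offset for the library level (1 lower) and 58 with single-CpG tiles (7 lower). With 1 library left out they were 14 to 88, with 0 to 2 lower: 88 without W464A/W465A/W796A replicate 1, and 14 without W464A/W465A replicate 1 or 3. Promoters called higher were 1 with edgeR or the larger overdispersion, 0 with limma, all 18 libraries, 25 points or no squeezing, 7 with 1000 bp either side and 1 to 4 with 1 library left out, 1 without W464A/W465A replicate 1 or 3. Windows called higher were 1 with edgeR and 3 with limma, none of them a satellite window, 0 with all 18 libraries, 25 points, no squeezing or the larger overdispersion, 5 with a prior following read depth, 6 with the offset and 2 to 4 with 1 library left out. Replicate numbers do not pair the samples: deviations of same-numbered libraries correlated over tiles at -0.0095, 0.0084 and 0.0074. With the replicate block, 17 classes and 2 lists moved one way in every pair, and 11 tiles, 0 promoters and 6 windows were called higher. The difference between W796A in W465A and in W464A/W465A was 9.24 points with at least 10 reads (exact permutation p 0.08), 15.5 points with the replicate block (exact permutation p 0.25) and 13.7 to 18.1 points with 1 library left out. Imprinted promoters, at 0.254 points, turned to -0.0868 and -0.0426 with at least 10 and 20 reads, -0.0928 on CpGs of all 18 libraries and -0.0344 without W464A/W465A/W796A replicate 2 (range -0.0344 to 0.399 with 1 library left out). Without W464A/W465A replicate 1, its replicate 3 or W464A/W465A/W796A replicate 2, masked CpGs turned to -0.251, -0.363 and -0.590 points and promoter CpGs to -0.0289, -0.0230 and -0.122 (ranges -0.590 to 2.34 and -0.122 to 0.156 with 1 library left out). With at least 20 reads promoters were -0.219 relative to the library mean. The cause of these changes was not tested. Depth limits single features: the median tile held 54 reads per library, and 791231 CpGs had at least 10 reads in all 6 libraries.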
